A study of Mus musculus with 22 samples.

Results

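B cells that carried an IgG2c heavy chain were compared with B cells that still carried IgM, inside the same 3 single-cell libraries of mouse splenic germinal center B cells. A cell entered when it had at least 500 detected genes, at most 10% mitochondrial transcript counts (unique molecular identifiers, UMIs) and a productive heavy chain in the immunoglobulin library made from the same capture; the heavy chain with the most UMIs gave its class. The rule found 614 IgG2c cells (236, 251 and 127 in the libraries NP 1, NP 2 and OVA 1) and 2295 IgM cells (729, 599 and 967), together 2909 of 6741 kept cells and of 8873 deposited cells. A further 1986 cells with IgG1, IgG2b or IgG3 served as a second comparison. The mice were C57BL/6 males, 8 weeks old by the labels and 6 to 8 weeks by the design text, and received 100 µg of antigen intraperitoneally in 50% (v/v) alum with 1 µg lipopolysaccharide. For NP 1 and NP 2 the antigen was NP-KLH, a hapten on a carrier protein, and NP-binding cells with high Fas and GL-7 were sorted on day 13. For OVA 1 it was ovalbumin, and all cells with high Fas and GL-7 were sorted, on a day that the labels leave unstated. Antigen, sorting gate and library therefore cannot be told apart between OVA 1 and the NP libraries. No label says whether the libraries came from separate animals. The p-values therefore measure how the difference between the arms varies over 3 libraries, a spread that may be technical.

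Class switching replaces the mu constant region by a downstream one while the rearranged V region stays the same. In C57BL/6 mice the switch to IgG2c, the counterpart of IgG2a in other strains, is known to be promoted by interferon gamma through the transcription factor T-bet. Switched and unswitched B cells share the germinal center, where they cycle between a dark zone of division and a light zone of selection. IgM is also the class of naive B cells and of part of the memory cells.

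IgG2c cells made up 14.3%, 17.7% and 6.79% of the cells with a heavy chain in NP 1, NP 2 and OVA 1, and IgM cells 44.0%, 42.3% and 51.7%. In the gene expression library of the same capture, an Ighg2c UMI was found in 94.5%, 88.8% and 85.8% of IgG2c cells, against 6.04%, 4.34% and 2.69% of IgM cells. The same share was 4.76%, 6.67% and 3.17% in the few cells of the T cell-like and myeloid-like clusters, at median depths of 3782, 4013.5 and 4792 UMIs. The IgM shares lay inside the exact intervals of those clusters, which are wide because they rest on 21, 30 and 63 cells. The source of the Ighg2c UMIs in IgM cells was not tested. An Ighm UMI was found in 38.1%, 20.3% and 26.8% of IgG2c cells and in 99.6%, 99.0% and 98.9% of IgM cells, with 71.4%, 63.3% and 54.0% in the T cell-like and myeloid-like clusters. Both arms carried Fas, the sorting marker, which stood at 181, 163 and 167 CPM (UMIs scaled to a common library size) in IgG2c cells and 180, 153 and 152 CPM in IgM cells. Median depth was 7659, 8074 and 9948 UMIs per IgG2c cell and 6697, 8607 and 7930 UMIs per IgM cell, and the arms summed to between 1363228 and 8732093 UMIs outside immunoglobulin genes. Pairs of libraries shared 9 to 11 cell barcodes, of which 1 or 2 lay in the arms.

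The heavy-chain junction (CDR3), the most variable part of the antibody, identifies the clones. Cells of a library formed a clone when V gene, J gene and CDR3 nucleotides were identical; the heavy-chain locus lies on chromosome 12. The 2 clones with the most IgG2c cells are shown for each library, to set the rearrangements of the NP response beside those of OVA 1. The capitals mark the fourth codon, counted from the conserved cysteine codon.
NP 1, IGHV1-72 and IGHJ2, 10 IgG2c cells: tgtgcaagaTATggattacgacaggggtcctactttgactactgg
NP 1, IGHV1-78 and IGHJ2, 9 IgG2c cells: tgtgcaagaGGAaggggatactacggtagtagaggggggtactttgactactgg
NP 2, IGHV14-3 and IGHJ3, 8 IgG2c cells: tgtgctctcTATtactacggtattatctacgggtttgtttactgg
NP 2, IGHV1-72 and IGHJ1, 6 IgG2c cells: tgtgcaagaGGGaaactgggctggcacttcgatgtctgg
OVA 1, IGHV3-6 and IGHJ2, 20 IgG2c cells: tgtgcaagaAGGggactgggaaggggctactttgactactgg
OVA 1, IGHV2-5 and IGHJ4, 10 IgG2c cells: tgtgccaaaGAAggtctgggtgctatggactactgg
Another OVA 1 clone, IGHV3-6 with IGHJ1, also had 10 IgG2c cells. The clone of 20 cells held 0 IgM cells, while the IGHV2-5 clone of 42 cells also held 14 IgM and 18 other IgG cells. Clones with both classes numbered 11, 16 and 14 in NP 1, NP 2 and OVA 1. Of the IgG2c cells, 6.78%, 13.1% and 33.9% had an IgM cell in their clone.

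The V gene that dominates the known response to NP, IGHV1-72, was used by 61.9% of IgG2c cells and 53.8% of IgM cells in NP 1 (exact Clopper-Pearson 95% intervals 55.3% to 68.1% and 50.1% to 57.4%). In NP 2 it was used by 62.5% of IgG2c cells and 60.1% of IgM cells, and in OVA 1 by 2.36% of IgG2c cells and 6.72% of IgM cells. The intervals of both arms overlapped in NP 1 and NP 2, and they cover counting error only, since cells of a clone share 1 rearrangement. Lambda light chains, the usual partner of that V gene, were found in 73.8%, 83.9% and 0.813% of IgG2c cells against 76.3%, 76.4% and 5.23% of IgM cells. Among IGHV1-72 cells a tyrosine codon in the marked position was found in 69.9% of IgG2c cells and 75.0% of IgM cells in NP 1, and in 70.1% of IgG2c cells and 80.0% of IgM cells in NP 2.

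IGHV3-6 was more frequent among IgG2c cells in 3 of 3 libraries: 5.93%, 1.99% and 33.9% of IgG2c cells, against 1.65%, 0.167% and 5.69% of IgM cells. With 1 cell kept per clone these shares were 6.21%, 1.075% and 17.2% in IgG2c cells against 1.77%, 0.223% and 6.22% in IgM cells. The NP 2 shares rest on few cells. IGHV3-6 was picked for report from several V genes counted besides IGHV1-72. Its shares in IgG1, IgG2b and IgG3 cells are not given, so it cannot be called particular to IgG2c. In OVA 1 single IGHV3-6 clones held 20 and 10 of the IgG2c cells. With 3 paired libraries a two-sided exact sign-flip permutation cannot go below 0.25, so no share was tested. Clones of at least 8 cells held 51.2% of the IgG2c cells of OVA 1 but 14.1% of its IgM cells, while they held 15.7% of IgG2c and 14.4% of IgM cells in NP 1, and 11.6% of IgG2c and 9.85% of IgM cells in NP 2. The median CDR3 length was 14 codons in both arms of every library. Of the IgG2c rearrangements 5 were seen in both NP 1 and NP 2 with any class, all IGHV1-72 with IGHJ2, and 0 were shared between OVA 1 and an NP library.

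**Figure D1:**
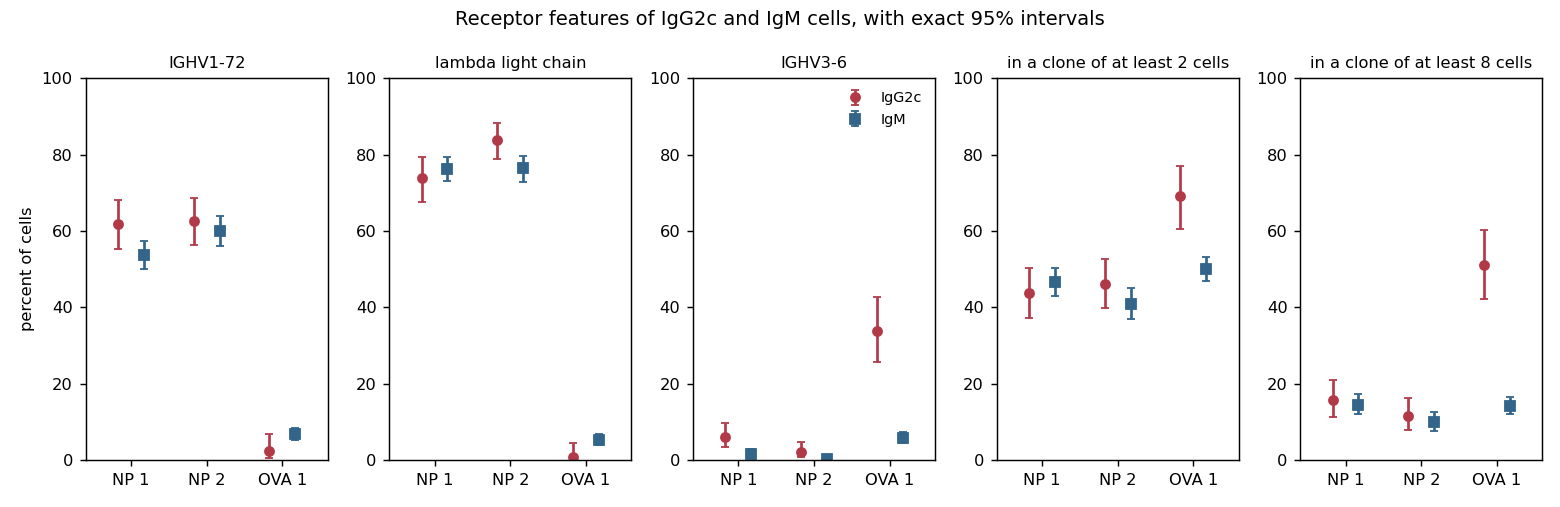
Percent of IgG2c cells (circles) and IgM cells (squares) with each receptor feature in the 3 libraries; bars are exact 95% intervals of counting error. IGHV1-72 and lambda chains lie close together in both arms of the NP libraries, while IGHV3-6 reaches 33.9% and clones of at least 8 cells 51.2% of the IgG2c cells of OVA 1.

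Between IgG2c and IgM cells 151 of 9526 tested genes differed (edgeR's quasi-likelihood test on summed counts with library as block, Benjamini-Hochberg adjusted p under 0.05), which is 1.59% of the genes. IgG2c cells had 56 genes higher (0.588%) and 95 lower (0.997%), and the median log2 fold over all genes was -0.0033. Immunoglobulin genes were removed, because they define the arms. The genes called without library as block numbered 0, with 262 at an unadjusted p under 0.05, and DESeq2 called 28, with 261 at an unadjusted p under 0.05. Of the 151 genes 146 moved the same way in all 3 libraries, which a test with library as block itself favours. Of all genes tested 2.92% had IgG2c sums that were all above the IgM sums, and 4.25% had them all below.

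Slpi, a secreted inhibitor of serine proteases, showed the largest rise among the genes named by rule. It stood at 93.6, 104 and 187 CPM in the IgG2c cells of NP 1, NP 2 and OVA 1, and at 35.7, 43.1 and 46.0 CPM in the IgM cells. Every IgG2c sum lay above every IgM sum, and the log2 fold was 1.59 ± 0.11 (SE; edgeR adjusted p = 2.06e-10). Tox, an HMG-box transcription factor, stood at 64.9, 58.4 and 46.9 CPM in IgG2c cells and 28.0, 22.3 and 16.9 CPM in IgM cells. Its arms did not overlap either, and the log2 fold was 1.35 ± 0.12 (SE; edgeR adjusted p = 3.99e-08). The related factor Tox2 rose by a log2 fold of 0.79 ± 0.16; without NP 1 it was at 0.87 and not called. Lmo2, a LIM-domain adaptor of transcription complexes that germinal center B cells express, stood at 94.1, 118 and 80.0 CPM in IgG2c cells and at 59.1, 63.9 and 59.1 CPM in IgM cells. The lowest IgG2c library was above the highest IgM library, with a log2 fold of 0.69 ± 0.09.

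Crip1, a small LIM-domain protein, was the most abundant of the genes that rose by rule. It stood at 1746, 1753 and 1920 CPM in IgG2c cells and 1259, 1269 and 1338 CPM in IgM cells, and the log2 fold was 0.49 ± 0.05. Lta, the cytokine lymphotoxin alpha, rose by 0.61 ± 0.07 on the log2 scale. The remaining genes of the 12 were Fos at 0.96 ± 0.12, Fscn1 (an actin-bundling protein) at 0.72 ± 0.13, Ildr1 at 0.65 ± 0.09, Clip2 (a linker of microtubules) at 0.63 ± 0.13, Rab8b (a GTPase of vesicle traffic) at 0.54 ± 0.14 and Fdps (an enzyme of isoprenoid synthesis) at 0.50 ± 0.11. For Fos, Tox2, Fscn1, Clip2, Lta and Fdps the libraries of the arms overlapped, although the IgG2c sum was the higher one within each library. Fos lost its call with 1 cell per clone, at 0.62 (edgeR adjusted p = 0.0702), and with cells thinned to 2500 UMIs, at 0.68. Rab8b lost its call without any 1 library, at 0.53 to 0.56, and Fscn1 without OVA 1, at 0.43.

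Ly6d, a GPI-anchored surface protein, had the lowest adjusted p of the genes named. It stood at 64.4, 101 and 124 CPM in IgG2c cells and 237, 263 and 554 CPM in IgM cells. The highest IgG2c sum was well below the lowest IgM sum, and the log2 fold was -1.80 ± 0.10 (SE; edgeR adjusted p = 6.14e-12). Thinned to 2500 UMIs per cell, a Ly6d UMI was found in 12.1%, 21.1% and 20.8% of IgG2c cells and in 36.3%, 36.9% and 55.4% of IgM cells. Without thinning the shares were 23.3%, 35.5% and 39.4% against 54.7%, 59.8% and 75.5%. In the T cell-like and myeloid-like clusters it was 8.33%, 8.70% and 10.0% after thinning; those held 12, 23 and 50 cells, and the IgG2c shares of all 3 libraries lay inside the wide exact intervals of those clusters, as did the IgM share of NP 1. The IgM shares of NP 2 and OVA 1 lay above them.

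Cd72, an inhibitory coreceptor of the B cell receptor, stood at 115, 106 and 140 CPM in IgG2c cells and 237, 161 and 302 CPM in IgM cells. The groups did not overlap, and the log2 fold was -0.92 ± 0.09. Foxp1, a factor of B cell development, and Fcmr, the receptor for IgM, were named after their values were seen. Their log2 folds were -0.63 ± 0.07 for Foxp1 and -0.54 ± 0.07 for Fcmr. Lmo4, a further LIM-domain protein named in that way, had a log2 fold of -0.94 ± 0.10. Ly6d, Cd72, Lmo4, Slpi and Tox passed the test also when only cells of clones with at least 2 cells were used, with log2 folds of -1.41, -0.80, -0.86, 1.26 and 1.22. In that fit, chosen after seeing the data, 24 of 54 named called genes kept their call and 30 lost it, among them Tox2 (0.36), Fscn1 (0.46) and Ifi203 (-0.50).

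**Figure D2:**
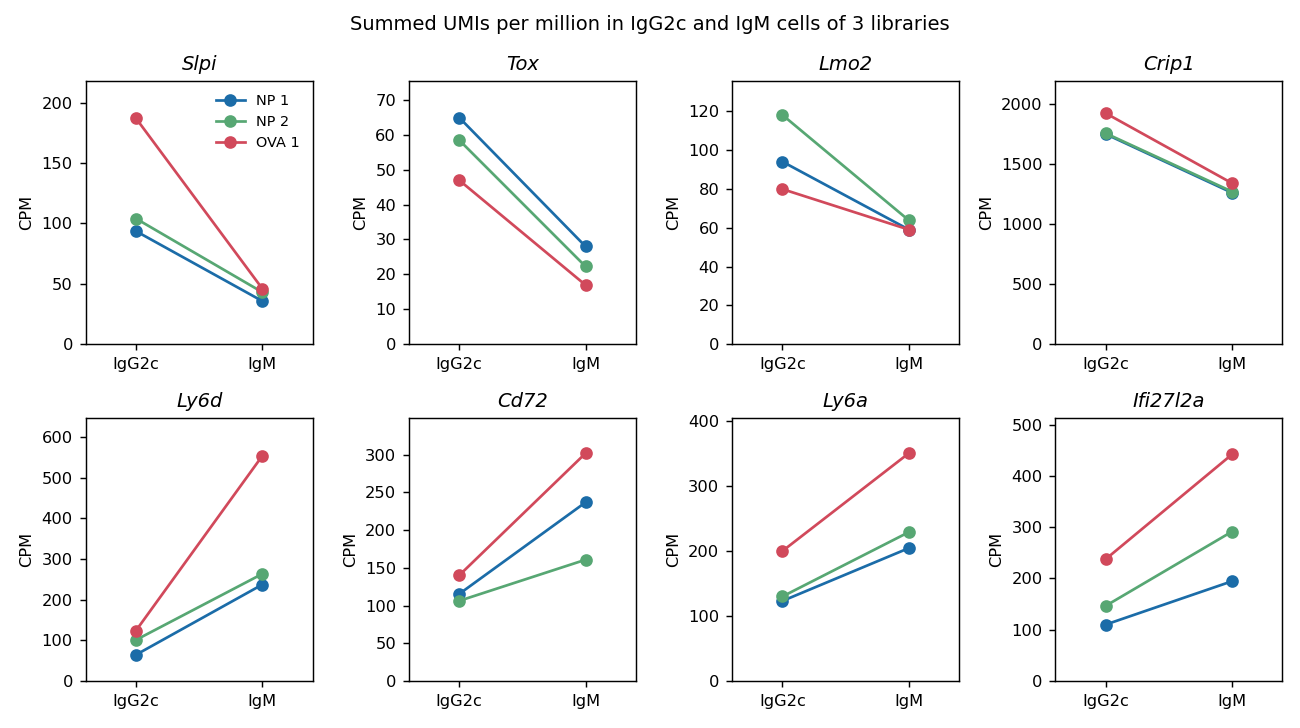
Level in CPM (axes from 0) of 8 genes in the summed IgG2c cells and IgM cells, with 1 point and line per library. Slpi, Tox, Lmo2 and Crip1 are higher in IgG2c cells and Ly6d, Cd72, Ly6a and Ifi27l2a lower, in each of the 3 libraries.

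Of the naive and memory B cell list 10 of the 26 tested genes fell and 0 rose in IgG2c cells, with a median log2 fold of -0.41. Over all genes tested 0.997% fell and 0.588% rose. Plac8 had 0, 3 and 1 UMIs in the IgG2c cells of NP 1, NP 2 and OVA 1 and 103, 96 and 621 UMIs in the IgM cells. The pooled rate was 58.8 times higher in IgM cells (exact 95% counting interval 22.9 to 216). Such an interval takes each UMI as independent, while these UMIs came from 2.61%, 4.84% and 12.1% of IgM cells. It therefore leaves out the spread between cells and libraries. That ratio for Plac8 was 172.9 without NP 2 (30.9 to 6840), 25.9 without OVA 1 (8.74 to 127) and 10.1 without the memory or naive-like cluster 13 (3.85 to 37.6). Ccr7, a chemokine receptor that directs cells to follicle borders, had 3 UMIs in IgG2c cells and 145 UMIs in IgM cells. Klf2, a transcription factor of lymphocyte circulation, stood at 2.97, 15.05 and 7.34 CPM in IgG2c cells against 23.4, 32.6 and 49.8 CPM in IgM cells. All 3 IgG2c sums were below the IgM sums, with a log2 fold of -1.94 ± 0.23.

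Also lower were Bcl2 (a survival factor, log2 fold -1.77 ± 0.35), Cd55 (a complement regulator, -1.54 ± 0.24), Ephx1 (an epoxide hydrolase, -1.43 ± 0.23), Ms4a4c (-1.14 ± 0.14) and Cd38 (an ectoenzyme, -0.94 ± 0.19). Ccr6, a chemokine receptor, had 1, 8 and 1 UMIs in IgG2c cells and 34, 23 and 241 UMIs in IgM cells. Without OVA 1 the calls of Bcl2 (-1.40), Cd38 (-0.62) and Ccr6 (-1.27) were lost, and without NP 2 the fitted fold of Ccr6 was -4.60. Some of these genes were also leading genes of clusters named memory or naive-like. Cluster 13, memory or naive-like by its markers with Klf2 and Plac8 among its leading genes, held 0, 4 and 0 IgG2c cells and 41, 38 and 116 IgM cells of NP 1, NP 2 and OVA 1. These counts are a description, because the same genes shaped the clusters. The other memory or naive-like cluster, led by Ephx1 and Cd38, held 22, 22 and 2 IgG2c cells and 55, 41 and 92 IgM cells. That was 9.32%, 8.76% and 1.57% of IgG2c cells against 7.54%, 6.84% and 9.51% of IgM cells. The share was thus lower in IgG2c cells only in OVA 1.

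Without cluster 13, a fit chosen after seeing the data, 84 of 9481 genes were called (0.886%): 35 higher (0.369%) and 49 lower (0.517%) in IgG2c cells, of which 82 were among the 151. Of the naive and memory list 3 of 23 tested then fell, Ms4a4c, Ephx1 and Cd24a, and 1 rose, Vim; the median was -0.077. Klf2 was then at -0.78 ± 0.27 (edgeR adjusted p = 0.269), Cd55 at -0.90 ± 0.26 (0.116), Bcl2 at -0.78 ± 0.40 (0.567) and Cd38 at -0.58 ± 0.18 (0.177). Ly6d was at -1.37 ± 0.08 and Slpi at 1.55 ± 0.10, both called. Naive and memory genes shaped cluster 13, so leaving it out shrinks their folds by construction. The fit therefore cannot test the part of the cluster.

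**Figure D3:**
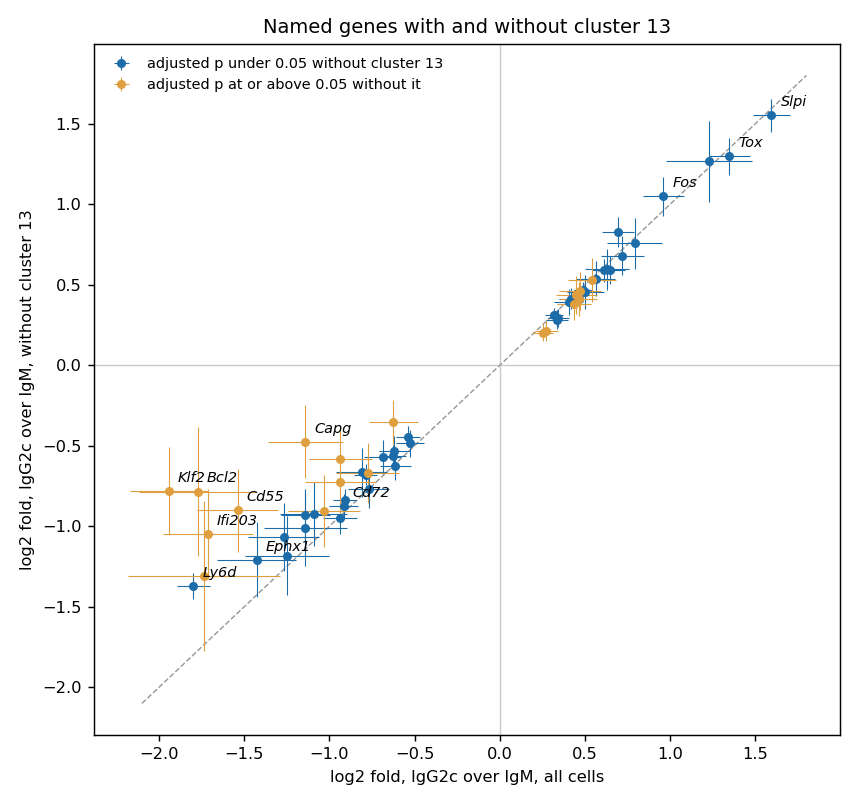
Log2 fold of IgG2c over IgM for the named genes called in all cells and tested in both fits, with all cells (x axis) and without cluster 13 (y axis); bars are SE and the dashed line marks equal folds. Genes higher in IgG2c cells lie near the line, while Klf2, Bcl2, Cd55 and Capg lie above it, nearer to 0 without the cluster. Naive and memory genes shaped the cluster, so a shift of their folds is built into the fit.

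The genes of the pathway known to promote IgG2c were mostly not higher in IgG2c cells. Of the interferon gamma and T-bet list 0 of 24 tested genes rose and 4 fell, with a median log2 fold of -0.21. The shares over all genes were 0.588% and 0.997%. Tbx21, which encodes T-bet, stood at 17.3, 15.5 and 27.9 CPM in IgG2c cells and 14.2, 9.59 and 17.3 CPM in IgM cells. Its sum was higher in IgG2c cells of 3 of 3 libraries but did not pass the test (log2 fold 0.55 ± 0.18, edgeR adjusted p = 0.166). In cells without IGHV1-72 it passed, at 0.79 (0.0393). Cxcr3, a T-bet target that encodes a chemokine receptor, was at 8.42, 27.0 and 30.8 CPM in IgG2c cells against 6.82, 11.2 and 25.2 CPM in IgM cells, with a log2 fold of 0.66 ± 0.20 (edgeR adjusted p = 0.116). It passed in 5 of 17 alternatives, among them the fits without NP 1 (0.73, adjusted p = 0.0485) and without OVA 1 (0.98, adjusted p = 0.0089). The receptor subunits Ifngr1 and Ifngr2 had log2 folds of 0.28 ± 0.10 and -0.39 ± 0.16, and Irf1 0.07 ± 0.14; none of these 3 passed the test, although Ifngr2 was called lower without NP 2 (-0.63).

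Ly6a, a surface protein induced by interferons, fell. It stood at 123, 130 and 200 CPM in IgG2c cells and 204, 228 and 350 CPM in IgM cells, without overlap, and the log2 fold was -0.79 ± 0.07 (SE; edgeR adjusted p = 3.65e-08). The other genes that fell were Gbp3 (an interferon-induced GTPase, log2 fold -1.25 ± 0.25), Zeb2 (a transcription factor, -1.03 ± 0.21) and Irf9 (a subunit of the type I interferon signal complex, -0.78 ± 0.19). Irf9 lost its call without NP 1 (-0.83) or OVA 1 (-0.68). Of the type I interferon list 7 of 23 tested genes fell and 0 rose, where 0.997% of all genes fell. All 23 log2 folds were negative, with a median of -0.52. A small cluster led by interferon-response genes such as Ifit3 and Mx1 held 0 IgG2c cells. It held 1, 1 and 4 IgM cells of NP 1, NP 2 and OVA 1, and its part in these folds was not tested. Ifi27l2a stood at 110, 147 and 238 CPM in IgG2c cells and 195, 291 and 442 CPM in IgM cells, lower within each library by a log2 fold of -0.91 ± 0.07 (SE; edgeR adjusted p = 1.67e-09). Log2 folds were -0.69 ± 0.11 for Slfn2, -0.53 ± 0.08 for Ifi209 and -1.71 ± 0.27 for Ifi203, and all 3 passed the test.

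Ifnar2, Isg15 and Irf7 were named after their values were seen. The receptor subunit Ifnar2 stood at 4.46, 9.74 and 8.80 CPM in IgG2c cells and 13.6, 16.8 and 21.9 CPM in IgM cells, with a log2 fold of -1.16 ± 0.23. Isg15 was at -0.63 ± 0.25 and Irf7 at -0.55 ± 0.15, and neither passed the test. Without cluster 13 the type I interferon list had 4 genes lower, Ifi27l2a, Ifi209, Slfn2 and Ifnar2, with a median of -0.39. The interferon gamma and T-bet list then had 2, Gbp3 and Ly6a, with a median of -0.036. Of the markers of other cells, 9 of 14 for T cells, 7 of 9 for NK cells and 3 of 15 for myeloid cells had 0 UMIs in IgG2c cells, Cd3e, Ncr1 and Csf1r among them; in IgM cells 1, 5 and 0 did. The summed T cell markers stood at 79.2 to 103 CPM in IgG2c cells and 87.4 to 118 CPM in IgM cells, and the myeloid markers at 203, 237 and 221 CPM in IgG2c cells and 174, 224 and 221 CPM in IgM cells of NP 1, NP 2 and OVA 1. The part of such cells in these values was not tested.

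**Figure D4:**
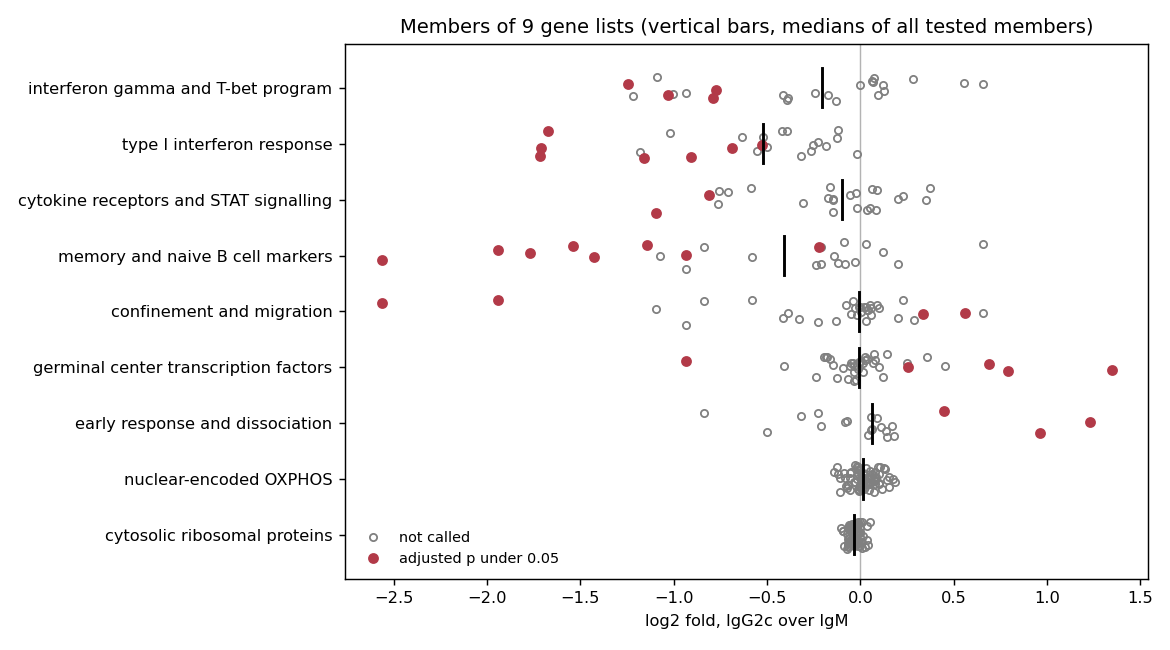
Log2 fold of IgG2c over IgM for the tested members of 9 gene lists; filled points passed the test, vertical bars are medians, and genes with under 4 UMIs in IgG2c cells are left out as points. The type I interferon and the naive and memory lists lie mostly below 0, with medians of -0.52 and -0.41, while the OXPHOS and ribosomal lists lie around 0.

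Cytokine receptors gave 2 lower genes of 24 tested: Il9r at -1.09 ± 0.19 and Il10ra at -0.81 ± 0.15, with 0 higher and a list median of -0.100. For this list and the next 2, the shares over all genes were 0.997% lower and 0.588% higher. In B cell receptor signalling Cd72 and Ptpn22 fell and 0 of 44 rose. Ptpn22 rested on 9 UMIs in IgG2c cells and lost its call without NP 1 (-1.60) or OVA 1 (-1.33). Of the antigen, CD40 and NF-kB response list 2 of 34 rose and 1 fell. Icam1, an adhesion molecule for T cell contact, rose by 0.40 ± 0.08, Egr1 rose by 0.47 ± 0.12, and Nfkbid (an inhibitor of the NF-kB family) had a log2 fold of -0.77 ± 0.12 and fell. Egr1 was higher in IgG2c cells of NP 1 and NP 2 and lower in those of OVA 1 (90.6, 69.5 and 33.7 CPM in IgG2c cells; 55.3, 46.7 and 39.1 CPM in IgM cells). It lost its call without NP 1 (0.28) or NP 2 (0.40).

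In the early response and dissociation list, whose genes are also induced by tissue handling, Fos, Fosb and Dusp1 rose and 0 of 20 fell. By comparison 0.588% of all genes rose and 0.997% fell. Fos stood at 30.2, 45.6 and 102 CPM in IgG2c cells and 18.2, 18.1 and 55.8 CPM in IgM cells, and Fosb had a log2 fold of 1.23 ± 0.25. Dusp1 (0.45 ± 0.12) lost its call without NP 2 (0.36) or OVA 1 (0.45). Jun, their partner in the AP-1 factor, was also named after its values were seen; it was at -0.84 ± 0.26 and did not pass the test. Both arms were captured together in each library, and the part of handling in these values was not tested.

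Among germinal center transcription factors 4 of 39 rose, Mef2b, Lmo2, Tox and Tox2, where 0.588% of all genes rose and 0.997% fell. Bhlhe40 fell (-0.94 ± 0.21, and without OVA 1 at -0.97 and not called). Mef2b, a factor upstream of Bcl6, stood at 601, 613 and 648 CPM in IgG2c cells and 538, 541 and 482 CPM in IgM cells, a log2 fold of 0.26 ± 0.06. Without cluster 13 it was at 0.20 ± 0.05 and not called (edgeR adjusted p = 0.0691), and without OVA 1 at 0.19 and not called. Bcl6, the central repressor of the germinal center program, stood at 106, 70.8 and 85.8 CPM in IgG2c cells and 101, 77.3 and 68.6 CPM in IgM cells and did not pass the test. Myc (-0.33 ± 0.12) did not pass it either.

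In the confinement and migration list 2 of 37 rose and 4 fell, where 0.588% of all genes rose and 0.997% fell. S1pr2, which keeps B cells in the germinal center, stood at 292, 230 and 253 CPM in IgG2c cells and 228, 188 and 198 CPM in IgM cells. The lowest IgG2c sum was above the highest IgM sum, with a log2 fold of 0.34 ± 0.06, and Rgs1, a regulator of chemokine receptor signalling, rose by 0.56 ± 0.11. Rgs1 was lower in the IgG2c cells of NP 1 and higher in those of NP 2 and OVA 1 (6.93, 80.1 and 189 CPM in IgG2c cells; 9.95, 60.3 and 107 CPM in IgM cells). It was not called without OVA 1, at 0.31, nor by DESeq2, at 0.34 (adjusted p = 0.999864). Ccr6, Ccr7 and Klf2 were among those that fell. Without cluster 13 Klf2 was not called, and Ccr6 and Ccr7 were under the count filter and not tested.

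No member was called among 39 genes of class switching and hypermutation, 21 of MHC class II, 22 of MHC class I, 25 of Toll-like receptor signalling, 53 of G2 and M phase, 77 nuclear-encoded and 13 mitochondrially encoded OXPHOS genes, 18 of glycolysis, 20 of the TCA cycle, 42 MYC targets, 80 ribosomal protein genes and 15 dark zone markers. The medians of these lists ran from -0.12 for MHC class I to 0.15 for glycolysis, where 18 of 18 log2 folds were positive. Single members were called in the lists of S phase (Rrm2, 0.27 ± 0.07) and the plasma cell program (Pdia4, -0.62 ± 0.14), and Bcl2 fell in the survival list. Without OVA 1 Rrm2 (0.19) and Pdia4 (-0.34) were not called. Icam1 was the 1 called gene of the light zone and of the T cell help lists. The synthesis enzymes Idi1, Msmo1 and Sqle of the sterol pathway were named after their values were seen; they rose by log2 folds of 0.46 ± 0.09, 0.43 ± 0.10 and 0.46 ± 0.11. Msmo1 lost its call without NP 2 (0.38) or OVA 1 (0.40), and Sqle without NP 1 (0.49) or NP 2 (0.40).

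IgG2c cells were then set against the cells of the other IgG classes, a comparison that shares the IgG2c cells with the first. Of 9466 genes 2 were called (0.0211%), both lower in IgG2c cells, with 407 at an unadjusted p under 0.05. Ly6d stood at 64.4, 101 and 124 CPM in the IgG2c cells of NP 1, NP 2 and OVA 1, below every other class of the same library. It was at 105, 165 and 271 CPM in IgG1 cells, 114, 169 and 213 CPM in IgG2b cells and 133, 200 and 255 CPM in IgG3 cells. The log2 fold against their sum was -0.87 ± 0.08 (SE; edgeR adjusted p = 1.21e-08). Parm1, a mucin-like membrane protein, was named because it was called here. It stood at 10.9, 18.1 and 19.1 CPM in IgG2c cells, 38.0, 42.0 and 46.9 CPM in IgG1 cells, 26.9, 20.4 and 23.2 CPM in IgG2b cells and 24.3, 23.6 and 27.4 CPM in IgG3 cells. Its log2 fold was -0.93 ± 0.17 (edgeR adjusted p = 0.0178), and the call was lost without NP 1 (-0.72) or without NP 2 (-1.15). Against IgM cells Parm1 did not pass the test (log2 fold 0.17 ± 0.25).

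The other genes called in the first comparison were not called here where they were tested. Plac8, Ccr7 and Ccr6 were among those under the count filter and not tested. Slpi averaged 128 ± 51.2 CPM in IgG2c cells, 149 CPM in IgG1 cells, 116 CPM in IgG2b cells and 67.0 CPM in IgG3 cells, and 41.6 ± 5.30 CPM in IgM cells (SD, n = 3 libraries). Its log2 fold of IgG2c over the other IgG cells was 0.12 ± 0.09. Tox averaged 56.8 ± 9.08 CPM in IgG2c cells, 52.8 CPM in IgG1 cells, 44.8 CPM in IgG2b cells and 45.4 CPM in IgG3 cells, against 22.4 ± 5.53 CPM in IgM cells, with a log2 fold of 0.29 ± 0.11 over the other IgG cells. Tbx21 averaged 20.2 ± 6.68 CPM in IgG2c cells, 13.0 CPM in IgG1 cells, 16.9 CPM in IgG2b cells and 13.7 CPM in IgG3 cells; its log2 fold of 0.47 ± 0.18 did not pass the test.

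**Figure D5:**
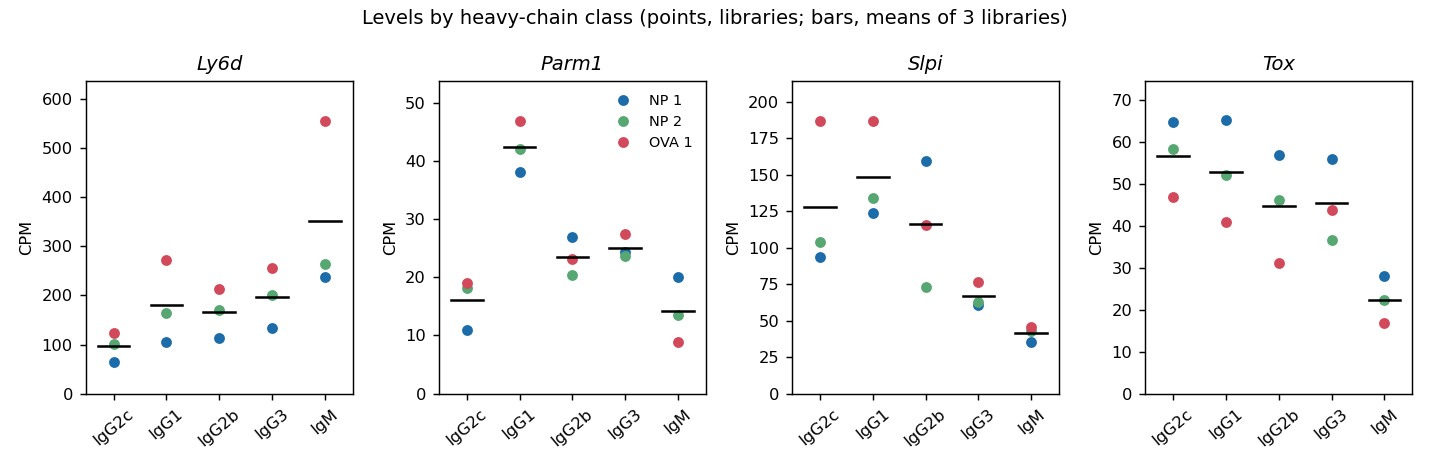
CPM of 4 genes by heavy-chain class, with a point per library and a bar for the mean of 3 libraries; IgG2c stands first and IgM last. Ly6d is lowest in IgG2c cells within each library, Parm1 is highest in IgG1 cells, and Slpi and Tox are lowest in IgM cells.

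The difference between IgG2c and IgM cells was also compared between OVA 1 and the NP libraries, with an interaction term. OVA 1 is 1 library, so the 1 residual degree of freedom comes from NP 1 against NP 2, and the spread between OVA libraries is unknown. Of 9526 genes 35 were called (0.367%), of which 15 had a higher (0.157%) and 20 a lower (0.21%) log2 fold in OVA 1. Without cluster 13 edgeR called 0, with 542 at an unadjusted p under 0.05, and with all clusters DESeq2 called 0, with 30 at an unadjusted p under 0.05. Ly6d, lower in IgG2c cells of every library, was among the 35 with a difference of -0.61 ± 0.16. The named genes are given under the results flagged for a closer look.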

How the data were processed

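Data came from 3 matched pairs of gene expression and immunoglobulin libraries. The submitters' processing notes name Cell Ranger and mm10, without versions or filters. The deposited gene table holds raw UMI counts per gene and cell, and the deposited contig tables give UMI counts per contig with V, J and constant gene calls. The bulk heavy-chain data were not used here. UMIs were summed per library and class, 226 immunoglobulin genes were removed, and CPM was computed from the remaining UMIs. Tests were edgeR 4.0.16 (R 4.3.3), quasi-likelihood, TMM and filterByExpr, at an adjusted threshold of 0.05; DESeq2 1.42.0 was an alternative. SE is the absolute log2 fold over the square root of F. The library blocks the test because both arms come from the same capture; deviations of the 2 arms from their means correlated at 0.72, 0.65 and 0.69 over 6260 genes. The fits against IgM and against the other IgG classes had 2 residual degrees of freedom and were tested on simulated counts with known changes. Those counts had the same spread for all genes, so they cannot show whether the calls on the real libraries are right. The interaction had 1 residual degree of freedom and was not simulated.

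Clusters (scanpy 1.11.5, leidenalg 0.10.2, resolution 1.0, 30 principal components, 15 neighbours, 2000 variable genes without immunoglobulin genes) were named with at least 3 markers among 50 leading genes. No doublet caller was used; a second productive heavy chain was found in 2.54%, 1.99% and 0.787% of IgG2c cells and 3.43%, 4.67% and 3.52% of IgM cells, and those cells were left out as an alternative.

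The members, gene lists and tests were chosen with earlier results of these data known. Named were the 12 genes of largest log2 fold per direction among called genes with 1 sign in all 3 libraries and a mean log2 CPM of at least 4, up to 4 called members per list and direction, and Tbx21, Cxcr3, Ifngr1, Ifngr2, Irf1, Bcl6, Myc, Cd38, Klf2 and Ccr6. Other genes are marked in the text as named after their values were seen, or are those of the interaction, markers or list members named with a count, and some genes that it names are not reported here. Of that rule Ifi203, Grap2, Capg, Marcks, Zeb2, Il9r and Plac8 completed the 12 that fell most.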

Additional observations from a re-analysis of the deposited data

Results flagged for a closer look

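Whether the difference between IgG2c and IgM cells itself differed between OVA 1 and the NP libraries was tested with an interaction term (edgeR's quasi-likelihood test); with 1 OVA library, its 1 residual degree of freedom comes from NP 1 against NP 2 alone. It called 35 of 9526 genes (0.367%), 15 with a higher and 20 with a lower log2 fold in OVA 1; values below are the fold in OVA 1 minus that in the NP libraries. DESeq2 called 0, with 30 at an unadjusted p under 0.05, and without cluster 13 edgeR called 0. Antigen, gate, clone sizes and library move together here, and the part of each was not tested.

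Of the G2 and M phase list 3 of 53 genes were called with a higher fold in OVA 1, of the dark zone markers 1 of 15 and of the S phase list 0 of 62. Among the genes called higher the difference was 0.60 for H2afx, 0.53 for Hist1h2ap, 2.52 for Hist2h4, 0.39 for Hmgn2, 0.40 for Tubb5 and 0.72 for Ube2c. It was 0.41 for Tuba1b, 1.23 for Cit, 0.38 for Pclaf and 1.34 for Mxd3. The value of Hist2h4 rests on few UMIs. Its levels were 3.96, 3.98 and 14.7 CPM in the IgG2c cells of NP 1, NP 2 and OVA 1. In the IgM cells they were 6.82, 20.6 and 8.59 CPM. Ube2c, a ubiquitin-conjugating enzyme of mitosis, stood at 104, 76.1 and 159 CPM in the IgG2c cells of NP 1, NP 2 and OVA 1 and at 96.0, 98.3 and 102 CPM in the IgM cells.

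Lower folds in OVA 1 were found for Sub1 (-2.04), Capg (-1.97), Psap (-0.88), Apoe (-0.60), Gimap4 (-0.87), Tmsb4x (-0.29) and Ddit4 (-1.21). They were also found for Irgm1 (-3.05), H2-K1 (-0.43), Clec2i (-1.65) and Ly6d (-0.61). The value of Irgm1 rests on few UMIs. It stood at 7.92, 4.43 and 3.67 CPM in the IgG2c cells of NP 1, NP 2 and OVA 1. In the IgM cells it stood at 3.50, 2.72 and 15.1 CPM. Capg, an actin-capping protein, was level over the IgG2c cells at 17.8, 19.0 and 19.1 CPM and reached 94.5 CPM in the IgM cells of OVA 1, against 23.8 and 24.3 CPM in those of NP 1 and NP 2. Ly6d was lower in IgG2c cells in every library, with the largest gap in OVA 1.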

How the results depend on the processing

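Against IgM, the count of 151 genes became 28 with DESeq2, 253 without a low-count filter, 49 with cells thinned to 2500 UMIs, 84 without cluster 13 and 32 with expanded clones only. It was 23 in IGHV1-72 lambda cells of the NP libraries, 4 in DZ-like cells and 15 in LZ-like cells, which hold fewer cells. With no replicate block it was 0; without 1 library it ranged from 127 to 221. Of 60 named called genes 60 kept their call with another normalization (RLE), 25 with DESeq2 and 0 with no replicate block; thinned, 27 of 56 tested did. Without NP 1, NP 2 or OVA 1, 6, 5 and 15 of them lost it. Without cluster 13, 38 of 56 tested kept it. Signs reversed for Capg in IGHV1-72 lambda cells (0.15), Nfkbid in DZ-like cells (0.38), and Mef2b in LZ-like cells (-0.042); the cause was not tested.

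Against the other IgG classes, 2 genes became 1 with DESeq2, 1 heavy chain, at least 5 heavy-chain UMIs, 1 cell per clone or the stricter cell filter (1000 genes, 5% mitochondrial), 6 without a filter and 0 with no replicate block (62 at an unadjusted p under 0.05); without 1 library it was 1 to 2. Ly6d stayed called in all of these except without the block. The interaction count of 35 became 78 with 1 cell per clone, 22 thinned, 5 with 1 heavy chain, 16 with the stricter filter, 0 with DESeq2 and 0 without cluster 13. Leaving out a library could not be fitted there, since no residual degrees of freedom or no OVA library remained. IGHV1-72 in the IgM cells of NP 2 was 53.9% with 1 cell per clone. Fits without cluster 13 and with expanded clones were chosen after seeing the data. Depth limits genes under 4 UMIs in IgG2c cells.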

Other observations

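Of the IgG2c rearrangements seen in both NP libraries, 2 had IgG2c cells in both. The first, IGHV1-72 with IGHJ2 on chromosome 12, had 1 IgG2c and 4 IgM cells in NP 1 and 2 IgG2c and 3 IgM cells in NP 2, and its CDR3, with the fourth codon in capitals, reads
IGHV1-72 and IGHJ2: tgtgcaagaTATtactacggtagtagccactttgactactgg
The heavy-chain contig had a median of 4, 6 and 8 UMIs in the IgG2c cells of NP 1, NP 2 and OVA 1, and 8, 16 and 20 UMIs in the IgM cells. Jchain, which links IgM and IgA polymers and was named after its values were seen, stood at 944, 920 and 652 CPM in IgG2c cells and 810, 993 and 618 CPM in IgM cells and did not pass the test (log2 fold 0.06 ± 0.06).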
